A study of Mus musculus with 9 samples.

Results

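Cirbp and Rbm3 encode the 2 classical cold-inducible RNA-binding proteins of mammals, and their transcripts were followed here in lung macrophages of mice that had breathed ozone. The pair was taken by name, as 2 of the 54281 genes in the table, and both passed the filter on low counts that left 15713 genes to test. The pair was selected on measured values, its levels and fold changes in these same libraries, which were known when it was chosen. These values are therefore a description and carry no test. Female wild-type mice aged 12 weeks from Jackson Labs, strain not given in the labels, were placed in a whole-body chamber with air or with ozone at 0.8 ppm for 3 h. Macrophages were washed out of the lung by lavage with massage from air mice (3 libraries), from mice 24 h after ozone (3 libraries) and from mice 72 h after ozone (3 libraries). The mice killed at 24 and 72 h received ketamine and xylazine. The time at which the air mice were killed is not given in the labels, and there was 1 air group for both times, so every comparison with air shares the same 3 controls. The labels count 3 per group and do not say whether each library came from 1 mouse, so the spread between libraries may be partly technical.

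Both proteins are small and carry a single RNA-recognition motif followed by a glycine-rich tail. In cultured cells and in tissues their mRNA and protein rise when temperature falls a few degrees below normal and decline when it goes above, the opposite of the heat shock proteins. They bind many mRNAs, act as RNA chaperones and favour translation and the stability of their targets, and Cirbp also moves to stress granules. Part of the temperature response is made by splicing, since a poison exon in Rbm3 and alternative ends in Cirbp decide how much translatable mRNA is kept. Released outside the cell, Cirbp is a danger signal that acts on macrophages through Tlr4 and Trem1. Ozone is known to lower body temperature in mice for a time after exposure, and body temperature was not analysed here.

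Cirbp (ENSMUSG00000045193.13) lies on the plus strand of chromosome 10, from 80165985 to 80172786 in GRCm38. GENCODE M21 gives it 7 transcripts, 2 of them protein-coding, and 2604 nt of merged exons. The main coding form, Cirbp-202, has 1321 nt and 172 codons. Rbm3 (ENSMUSG00000031167.16) lies on the minus strand of chromosome X, from 8138975 to 8145880. It has 11 transcripts, 6 of them protein-coding with 153 or 154 codons, and 4698 nt of merged exons. The table gives 1 value per gene, so coding forms and forms marked for nonsense-mediated decay were added together and cannot be told apart.

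The Cirbp promoter is shown because its mild cold-responsive element, an 8-base motif bound by Sp1, is a known DNA element of the cold response of this gene. The stretch below, from RefSeq (GRCm38.p6), covers chr10:80167589-80167777 on the plus strand, 189 bases that end at the base before the first exon of Cirbp-202 and lie within the first intron of Cirbp-207. The element is in capitals.
Cirbp promoter: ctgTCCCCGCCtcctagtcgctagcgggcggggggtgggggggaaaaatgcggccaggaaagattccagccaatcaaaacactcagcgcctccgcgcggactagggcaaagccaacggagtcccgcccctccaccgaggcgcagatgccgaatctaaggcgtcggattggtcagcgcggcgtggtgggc
The motif TCCCCGCC stood once, at bases 4 to 11 of the stretch, and did not overlap the GC boxes. Searched on both strands, it was present in 5.38% of the 32851 RefSeq promoter windows of 300 nt, and in 1 of the 2 windows of Cirbp. The GC box GGGCGG was in both Cirbp windows and in 35.7% of all windows. The heat shock element GAANNTTC, the E-box CACGTG and the TATA box TATAAA were in neither Cirbp window, against 7.86%, 7.15% and 13.6% of all windows. Rbm3 had no entry among these windows.

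Library totals ran from 47095543 to 60248305 estimated counts. The summed level of 18 alveolar macrophage markers was 28070 to 44530 on the counts-per-million scale (CPM, scaled by the trimmed mean of M-values, TMM), and each of the 18 was detected. The libraries of 24 h replicate 2 and 72 h replicate 1 stood apart from the other 7 in markers of other cell types. Their summed B cell markers reached 1567 and 898.5 CPM, against 2.28 to 12.5 in the other 7, and their serous cavity macrophage markers 633.8 and 811.2 CPM, against 3.52 to 6.14. In the same order T cell markers were at 1166 and 285.5 CPM, against 230 to 260 in the other 7. Erythroid markers were at 2942 and 2547 CPM, against 22.8 to 874. Neutrophil markers were at 193.2 and 167.0 CPM, against 62.3 to 86.3, and monocyte markers at 356.1 and 278.2, against 96.5 to 141. Endothelium and fibroblast markers were at 59.63 and 29.49 CPM, against 0.532 to 7.34. The 2 libraries also had the lowest alveolar macrophage sums, 28070 and 32520 CPM. Their mitochondrial shares were 5.25% and 6.18% of counts, against 2.71% to 3.07%. None of the 12 B cell and 8 serous cavity markers was at 0 in all 9 libraries. The library of air replicate 2 had Xist at 2.42 CPM, against 887.2 to 1482 in the other 8, while Y-linked genes summed to 0.0801 to 0.239 CPM over all 9, so that results on X-linked Rbm3 are also given without it.

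In air, Cirbp was at 20.83, 19.27 and 19.78 CPM in the 3 libraries. At 24 h after ozone it was at 12.31 in replicate 1, 20.57 in replicate 2 and 12.31 in replicate 3. At 72 h it was at 24.47 in replicate 1, 13.23 in replicate 2 and 13.44 in replicate 3. The 4 ozone libraries without lymphocyte markers were therefore the 4 lowest of the series, while 24 h replicate 2 lay inside the air range and 72 h replicate 1 above it. The air libraries lay close together, and the group means were 19.96 ± 0.799 CPM in air, 15.06 ± 4.77 at 24 h and 17.04 ± 6.43 at 72 h (SD, n = 3 each). Over all 9 libraries the ozone groups overlapped with air at both times.

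Without the 2 libraries that held lymphocyte and serous cavity markers, Cirbp was at 61.7% of the air mean at 24 h and at 66.8% at 72 h (n = 2 each). Neither group then overlapped with air, and the 72 h libraries lay above the 24 h libraries, 13.23 and 13.44 against 12.31 CPM in both. The library counts of Cirbp were 584.001 to 1229, which gives a counting error of 2.85% to 4.14% per library. The part of the other cell types in the 2 high values was not tested. Markers also moved with ozone among the 7 libraries: the alveolar macrophage sum was 36380 to 38810 CPM in the 4 ozone libraries and 42020 to 44530 in air. Erythroid markers summed to 874.0 and 154.0 CPM at 24 h, against 35.25 to 94.9 in air. Dendritic cell markers summed to 210.2 and 210.5 CPM at 72 h, against 137.5 to 154.5 in air. Lung epithelium markers summed to 295.6 to 328.8 CPM in the 4 ozone libraries, against 240.1 to 277.3 in air. At 72 h monocyte markers summed to 136.5 and 140.9 CPM, against 96.49 to 124.3 in air. Endothelium and fibroblast markers summed to 5.962 and 7.339 CPM at 72 h, against 0.5317 to 1.78 in air. Their part in the lower Cirbp and Rbm3 values was not tested. In bulk samples such as these, fewer cells of a type and less RNA per cell cannot be told apart.

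**Figure D1:**
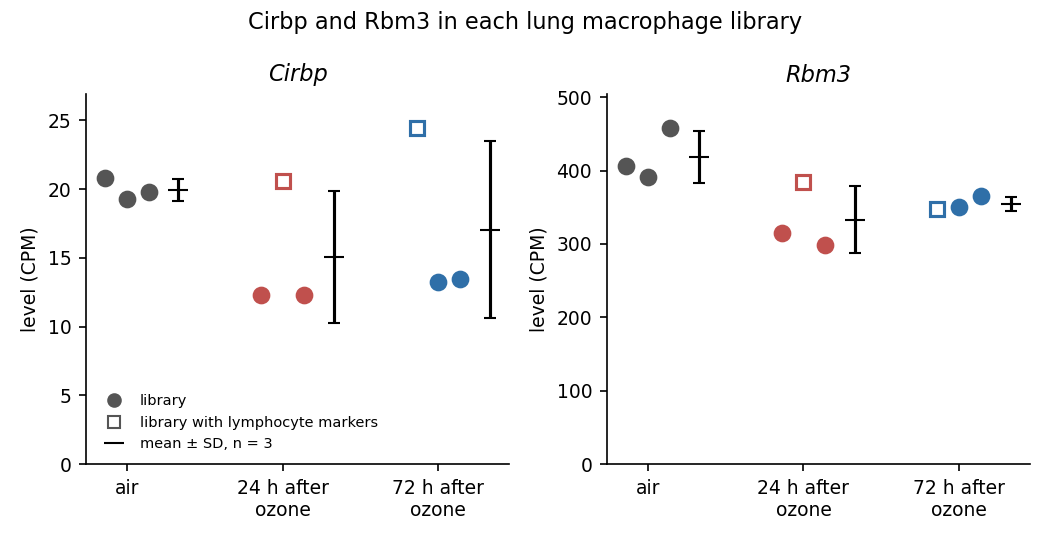
Level of Cirbp (left) and Rbm3 (right) in CPM, by group; points are libraries, open squares the 2 libraries with lymphocyte markers, and bars the mean ± SD (n = 3). The Cirbp squares sit at 20.57 and 24.47 CPM among or above the air libraries, while the other 4 ozone libraries lie between 12.31 and 13.44.

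Rbm3 was the more abundant of the pair by far. In air it was at 406.2, 390.9 and 458.4 CPM. At 24 h it was at 315.1, 384.6 and 298.8 CPM, and at 72 h at 348.1, 350.4 and 364.9 CPM. All 6 ozone libraries lay below the lowest air library, with 24 h replicate 2 nearest to it. Group means were 418.5 ± 35.4 CPM in air, 332.8 ± 45.5 at 24 h and 354.5 ± 9.1 at 72 h (SD, n = 3 each), or 79.5% and 84.7% of air after ozone. At 24 h the separation was narrow and rested on the scaling: 384.6 against 390.9 CPM with TMM, but 393.3 against 383.7 with library size alone, where the groups overlapped. At 72 h the highest ozone library was below the lowest air library under each of the 4 scalings tried.

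Without the 2 libraries, Rbm3 was at 307.0 ± 11.5 CPM at 24 h and 357.7 ± 10.2 at 72 h (SD, n = 2 each), or 73.4% and 85.5% of air. The 72 h libraries then lay above the 24 h libraries. Unlike Cirbp, Rbm3 in 72 h replicate 1 was no higher than in the other 72 h libraries. Counts of 14178 to 27554.6 per library gave a counting error of 0.602% to 0.84%.

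The order of the group means was thus air, 72 h and 24 h, from high to low, for both genes. For Cirbp the neighbours in that order overlapped over all 9 libraries. For Rbm3 the 72 h group lay below air without overlap, and the 24 h and 72 h groups overlapped through 24 h replicate 2. Over all tested genes, 9.06% lay below air without overlap at 24 h and 22.1% did so at 72 h. Over the 7 libraries these shares were 14.4% and 27.9%, and 31.8% of genes lay higher without overlap at 72 h than at 24 h. Groups that do not overlap were therefore common in these small groups, and nothing is read from it here for a pair that was chosen for its pattern.

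**Figure D2:**
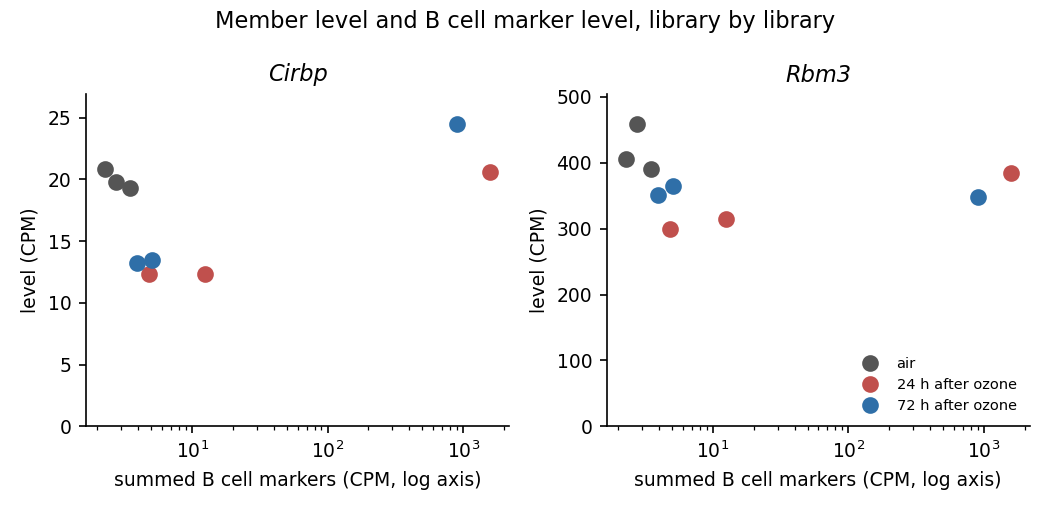
Level of Cirbp (left) and Rbm3 (right) in CPM against the summed level of 12 B cell markers in CPM (log axis), 1 point per library, coloured by group. The 2 libraries at 1567 and 898.5 CPM of B cell markers hold Cirbp at 20.57 and 24.47 CPM, and Rbm3 at 384.6 and 348.1 CPM.

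Fitted over all 9 libraries, Cirbp differed from air by a log2 fold change of -0.41 ± 0.28 (SE) at 24 h and -0.23 ± 0.28 at 72 h, and the 72 h against 24 h value was 0.18 ± 0.28. For Rbm3 the 3 values were -0.33 ± 0.10, -0.24 ± 0.10 and 0.09 ± 0.10. The error was larger for Cirbp, whose ozone libraries spread more widely. Over the 7 libraries the Cirbp values became -0.70 ± 0.07, -0.56 ± 0.07 and 0.14 ± 0.08, with a much smaller error. The Rbm3 values became -0.45 ± 0.08, -0.20 ± 0.08 and 0.24 ± 0.09. Without air replicate 2 as well, the Rbm3 values were -0.49 ± 0.08, -0.27 ± 0.08 and 0.22 ± 0.08.

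Neither gene was called at 24 h, 72 h or between the times over all 9 libraries (edgeR quasi-likelihood, Benjamini-Hochberg adjusted p under 0.05). The background was 0.00636% of genes called at 24 h, 5.47% at 72 h and 18.2% for 72 h against 24 h. At an unadjusted p under 0.05, 1, 1 and 0 of the 2 genes were past the threshold, beside 14.7%, 25.3% and 33.3% of all genes. DESeq2 called 1 of the 2, Rbm3, at 24 h among 618 genes, and neither in the other comparisons, beside 5.03%, 12.6% and 25.8% of the genes it gave an adjusted p. Limma voom called neither, beside 0.00636%, 5.52% and 18.4%. Over the 7 libraries Cirbp was among the 24 genes (0.153%) called at 24 h and the 1126 (7.17%) called at 72 h, and Rbm3 was in neither set. Without air replicate 2 as well, Cirbp was not called at 24 h and was among 430 genes at 72 h. These calls come from the contrasts that the choice of genes had seen and support nothing.

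**Figure D3:**
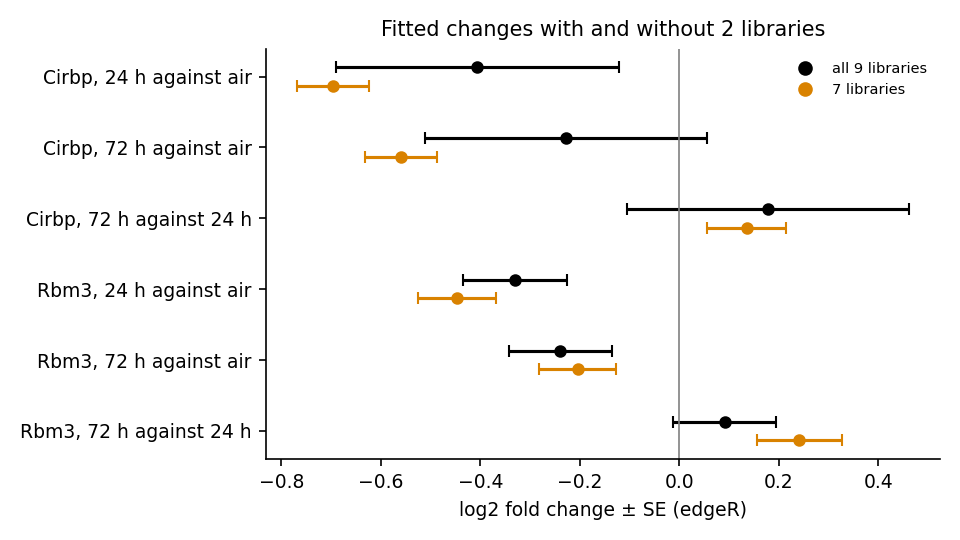
Log2 fold change ± SE from the edgeR fit for Cirbp and Rbm3 in the 3 comparisons, over all 9 libraries (black) and over 7 (orange). For Cirbp at 24 h the point moves from -0.41 to -0.70 and its error shrinks, while the Rbm3 points move less.

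Per length, as TPM (counts divided by merged exon length, then scaled to the same sum in every library), Rbm3 was at 268 ± 21.6 in air and Cirbp at 23.0 ± 1.02 (SD, n = 3 each). At 24 h the values were 208 ± 18.7 and 16.9 ± 4.51, and at 72 h 232 ± 13.4 and 19.9 ± 6.56. On the TPM scale Rbm3 stood between the 95.4th and 97.0th percentile of the tested genes of a library, and Cirbp between the 55.3rd and 71.2nd. The ratio of Rbm3 to Cirbp counts, which needs no scaling, was 19.5, 20.3 and 23.2 in air. It was 25.6, 18.7 and 24.3 at 24 h, and 14.2, 26.5 and 27.2 at 72 h. The lowest ratios belonged to the 2 libraries with lymphocyte markers, and the other 4 ozone libraries had ratios above every air library. Nothing is read from this separation, since the pair was chosen with its levels known. Per kilobase, the group ratios were 11.6 in air, 12.6 at 24 h and 12.0 at 72 h.

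Genes beside and across the pair were read for signal that could be counted into them. Rbm3os, an antisense RNA, overlaps the 5′ end of Rbm3 by 452 bp, and had 7 to 25 counts per library, 0.14 to 0.46 CPM, against at least 14178 for Rbm3. The pseudogene Rbm3-ps had 2 to 10 counts. The kit keeps strand, and the labels do not state how the counting treated it. The nearest coding genes on either side were Midn and 1600002K03Rik for Cirbp, the latter 157 bp away on the same strand, and Wdr13 and Tbc1d25 for Rbm3. Of these Wdr13 was higher at 72 h than at 24 h, by 0.34 ± 0.08 on the log2 scale (adjusted p = 0.0258), and the others passed no test.

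Likeness was read as Pearson's r of log2 CPM over the 7 libraries without lymphocyte markers, among 8516 genes averaging at least 10 CPM, and with 7 points it is only a description. Closest to Cirbp were Ttc5 (r = 0.984), Smim14 (0.982), Ube2d1 (0.981), Hnrnph3 (0.980) and Cib2 (0.977). Closest to Rbm3 were Slpi (0.973), Snapc1 (0.969), Ist1 (0.963), Ganc (0.957) and H2-M3 (0.954). Between the pair itself r was 0.885, which put Rbm3 at rank 135 from Cirbp and Cirbp at rank 38 from Rbm3. Over all 9 libraries r was 0.644, and 1 of the 5 nearest genes of each stayed among its nearest 5. The libraries share air, 24 h and 72 h groups, so that any gene following the same group order scores high.

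Genes around the pair were read in 10 lists that hold 161 tested genes. At 24 h none was called with edgeR, beside 0.00636% of all genes, with 35 at an unadjusted p under 0.05, beside 14.7% of all genes. DESeq2 called 14, beside 5.03%, and voom 0. At 72 h 12 were lower than in air and 0 higher, 7.45% in all, beside 3.77% of all genes lower and 1.71% higher. From 24 h to 72 h 42 were lower and 3 higher, 28.0% in all, beside 12.8% lower and 5.39% higher. Over the 7 libraries the counts were 1 higher at 24 h (0.621%, beside 0.153%), 3 higher and 11 lower at 72 h (8.7%, beside 7.17%), and 10 higher and 35 lower between the times (28.0%, beside 15.3%). Over all 9 libraries 3 were higher at 72 h than at 24 h: Rbm33, Clk4 and Srsf11. They were picked out after their values were seen, as were the genes named below for a call gained over the 7 libraries. Srsf11 was not called in the edgeR fit of the 7 libraries (adjusted p = 0.0597). The 72 h against air calls rested on single libraries: 0 remained without air replicate 2 or 3 or without 72 h replicate 1 or 2, and 21 were called without 24 h replicate 2. The 72 h against 24 h calls numbered 16 without 72 h replicate 2 and 48 at most, and each list gene named below whose fall between the times was lost in any fit without 1 library lost it without 72 h replicate 2.

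Among 33 tested genes of the RBM family, the wider set of proteins with an RNA-binding motif, 0 were called at 24 h, 1 lower at 72 h and 5 lower and 1 higher from 24 h to 72 h. Over all genes 0.00636%, 5.47% and 18.2% were called in these comparisons, so the counts of the family were near or below the background. The medians of the log2 fold changes were 0.039, -0.066 and -0.083, beside 0.014, -0.0073 and -0.025 over all genes. Rbm8a, a core protein of the exon junction complex that marks spliced mRNA, was at 40.93 ± 3.62 CPM in air, 45.52 ± 1.54 at 24 h and 32.38 ± 0.937 at 72 h (SD, n = 3 each), and fell by 0.49 ± 0.07 on the log2 scale from 24 h to 72 h (adjusted p = 0.00617). It was also below air at 72 h, by -0.34 ± 0.07 (adjusted p = 0.0331). Rbm42 fell by 0.45 ± 0.10, Rbm10 by 0.39 ± 0.09 and Rbm15b by 0.23 ± 0.04 from 24 h to 72 h, with adjusted p of 0.0187, 0.02 and 0.0112.

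The 24 hnRNP and FET genes, abundant nuclear proteins that package and splice pre-mRNA, had 0 called at 24 h, 4 lower at 72 h and 9 lower from 24 h to 72 h. Over all genes 3.77% were lower at 72 h and 12.8% lower between the times. The medians of the list were 0.05, -0.13 and -0.18. Hnrnpab was at 259.0, 257.4 and 275.8 CPM in air, at 311.7, 307.6 and 276.2 at 24 h, and at 203.7, 198.6 and 216.3 at 72 h. The 72 h libraries lay below air without overlap for this gene, beside 22.1% of all genes. Hnrnpab fell by 0.53 ± 0.07 on the log2 scale from 24 h to 72 h (adjusted p = 0.00586) and by 0.36 ± 0.07 from air to 72 h (adjusted p = 0.0318). Hnrnpc fell by 0.42 ± 0.06, Rbmxl1 by 0.44 ± 0.07 and Taf15 by 0.36 ± 0.06 between the times, with adjusted p of 0.00695, 0.00767 and 0.00741. These 4 falls were called in each of the 9 fits that left out 1 library. Rbmx and Hnrnpdl were called higher over the 7 libraries at 72 h than at 24 h (adjusted p = 0.0277 and 0.0276). In the same comparison 8 genes of the list were lower, beside 15.3% of all genes called in either direction.

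The cold-shock domain proteins share a name with Cirbp and a fold with the bacterial cold-shock proteins, but not its RNA motif. Of 5 tested, 0 were called at 24 h or 72 h against air, beside 0.00636% and 5.47% of all genes. From 24 h to 72 h 3 were lower, beside 12.8% of all genes. Ybx1, an mRNA-packaging protein of cytoplasmic mRNA, was at 447.2 ± 21.7 CPM in air, 500.5 ± 14.1 at 24 h and 370.7 ± 18.4 at 72 h, and fell by 0.43 ± 0.07 from 24 h (adjusted p = 0.00774). Ybx3 was at 45.18 ± 4.35, 58.94 ± 3.74 and 35.21 ± 3.2 CPM, and fell by 0.74 ± 0.09 (adjusted p = 0.00534). Carhsp1 fell by 0.26 ± 0.07 (adjusted p = 0.0334), and lost its call in 5 of the 9 fits and without the 2 libraries. The list's medians were 0.08, -0.27 and -0.43 for 24 h, 72 h and 72 h against 24 h. Ybx3 was in the 7-library fit also called lower at 72 h than in air (log2 -0.39, adjusted p = 0.0425).

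Genes of the heat shock response had 0 of 22 called at 24 h, although 20 of the 22 had a positive log2 fold change. In the same comparison 12 had an unadjusted p under 0.05, beside 14.7% of all genes. Their median at 24 h was 0.26, beside 0.014 over all genes, and DESeq2 called 6 of them higher, beside 5.03% of all genes called by it in either direction. From 24 h to 72 h 10 fell and 0 rose, beside 12.8% of all genes lower and 5.39% higher, with a median of -0.52. At 72 h against air 4 were lower, beside 3.77% of all genes. In the 7-library fit 2 were higher in both comparisons at 72 h, the small heat shock genes Hspb1 and Hspb8, which averaged 0.288 and 0.408 CPM. In that fit 8 were lower than at 24 h and 3 lower than in air. Over all genes it called 15.3% and 7.17% in these comparisons, in either direction. Hsp90aa1, the inducible cytosolic Hsp90 chaperone, was at 271.8, 275.8 and 289.4 CPM in air, at 386.2, 408.2 and 385.8 at 24 h, and at 215.5, 223.3 and 254.5 at 72 h. For Hsp90aa1 the 72 h libraries lay below air without overlap, beside 22.1% of all genes. Its values in 24 h replicate 2 and 72 h replicate 1 lay with those of their own groups. The change from 24 h to 72 h was -0.77 ± 0.08 (adjusted p = 0.00366), and at 24 h against air 0.50 ± 0.08 (adjusted p = 0.112), which did not pass. Stip1, a co-chaperone of Hsp90, was at 95.44 ± 0.992, 122.6 ± 3.13 and 75.41 ± 6.22 CPM in the 3 groups, and fell by 0.70 ± 0.06 (adjusted p = 0.00366). Fkbp4 fell by 0.76 ± 0.07 and Hspd1, the mitochondrial chaperonin, by 0.61 ± 0.07 (adjusted p = 0.00366 and 0.00374).

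**Figure D4:**
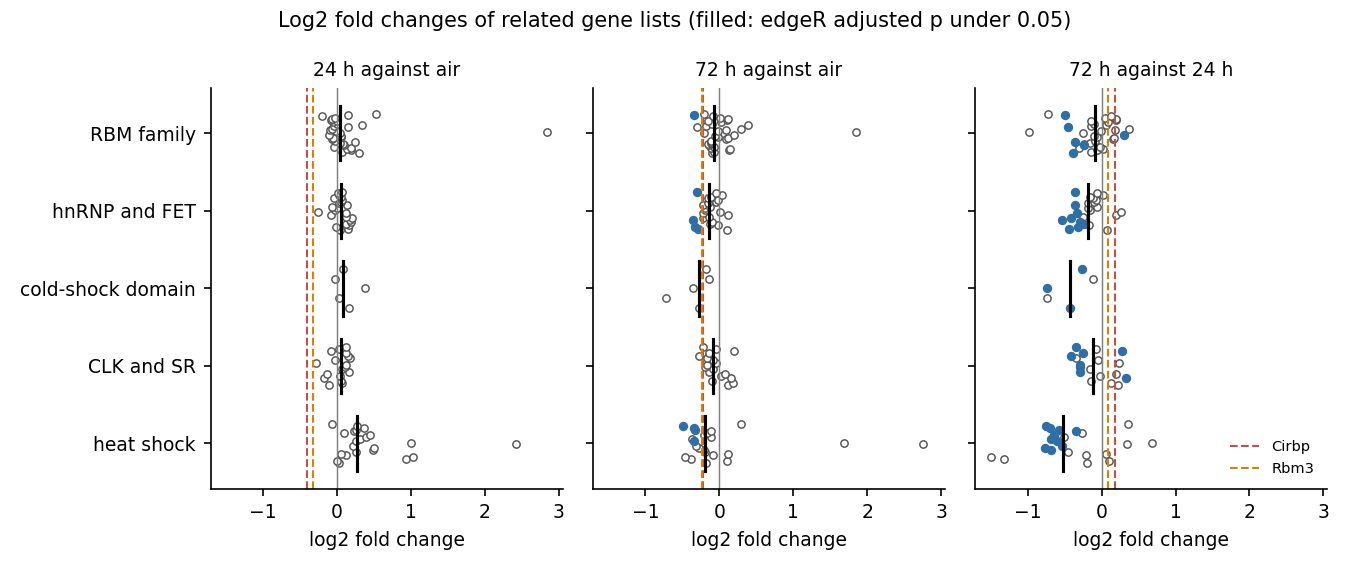
Log2 fold changes of the genes of 5 lists, 1 panel per comparison, points filled where the edgeR adjusted p was under 0.05; dashed lines mark Cirbp and Rbm3. At 24 h against air no point is filled, and from 24 h to 72 h the heat shock points spread to the left with a median of -0.52, away from the dashed lines.

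The CLK kinases and SR proteins, which carry the temperature signal into splicing, had 0 of 18 called against air at either time, and 6 lower and 2 higher from 24 h to 72 h. Over all genes 0.00636% were called at 24 h and 5.47% at 72 h, and 12.8% were lower and 5.39% higher between the times. Srsf10 fell by 0.26 ± 0.05, Srsf9 by 0.42 ± 0.09, Srsf1 by 0.30 ± 0.06 and Tra2b by 0.34 ± 0.08 (adjusted p = 0.0104, 0.0176, 0.0182 and 0.024). Of these Tra2b lost its call without the 2 libraries. Of 15 stress granule proteins, among which Cirbp is found, 1 was lower at 72 h than in air and 3 were lower than at 24 h. Over all genes 3.77% and 12.8% were lower in these comparisons. The list's medians were -0.026 and -0.029, beside -0.0073 and -0.025 over all genes. Elavl1, which stabilises mRNAs with AU-rich ends, fell by 0.31 ± 0.05 (adjusted p = 0.00789), G3bp1, the granule's scaffold, by 0.32 ± 0.07 (adjusted p = 0.0174), and Eif2s1 by 0.31 ± 0.07 (adjusted p = 0.0246). Between the times Elavl1 was called in all 9 fits and Eif2s1 in 5, and Eif2s1 was not called without the 2 libraries, where Tia1 was called higher (adjusted p = 0.0213) and Usp10 lower (0.0409).

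Of 9 regulators, partners and mRNA targets of the pair, 0 were called at 24 h, 1 was lower at 72 h than in air and 3 were lower than at 24 h. Over all genes 3.77% were lower than in air and 12.8% lower than at 24 h. Prmt1, the arginine methyltransferase that modifies the glycine-rich tail of Cirbp, was at 44.53 ± 3.33 CPM in air, 53.53 ± 4.61 at 24 h and 35.33 ± 1.86 at 72 h, and fell by 0.60 ± 0.08 from 24 h (adjusted p = 0.00595). It was also called lower at 72 h than in air over the 7 libraries (log2 -0.35, adjusted p = 0.0322). Rpa2, a single-stranded DNA-binding protein whose mRNA Cirbp binds, was at 22.86 ± 3.98, 30.51 ± 3.04 and 18.64 ± 1.48 CPM and fell by 0.71 ± 0.13 (adjusted p = 0.0102). Txn1, thioredoxin, whose mRNA Cirbp also binds, was at 370.5 ± 18.1, 360.5 ± 15.6 and 284.3 ± 23.9 CPM, and fell by 0.34 ± 0.08 from 24 h (adjusted p = 0.0213) and by 0.38 ± 0.08 from air (adjusted p = 0.0339). The fall from 24 h was not called without the 2 libraries (adjusted p = 0.056). The 72 h values of Txn1 were 261.7, 282.0 and 309.3, below all air libraries. Over all genes 22.1% lay below air without overlap at 72 h. Sp1, the factor that binds the element in the Cirbp promoter, was at 165.0 ± 11.5, 167.6 ± 9.25 and 163.5 ± 6.58 CPM and was not called. Hif1a, Gsk3b, Tnpo1, which imports Cirbp into the nucleus, Atr and Rtn3, a synaptic target of Rbm3, were not called at any comparison, with log2 values from -0.24 to 0.19.

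Of 9 genes for the receptors and signalling of extracellular Cirbp, 0 were called against air at either time over all 9 libraries. The share called over all genes was 0.00636% at 24 h and 5.47% at 72 h. Tlr4 was at 173.2, 176.4 and 180.3 CPM in air, at 199.9, 116.9 and 201.4 at 24 h and at 177.4, 210.4 and 201.3 at 72 h. Its lowest value was in 24 h replicate 2, while 72 h replicate 1 lay inside the air range. Tlr4 was called higher at 72 h than in air over the 7 libraries, by 0.24 on the log2 scale (adjusted p = 0.0331). It was the 1 gene of the 9 so called, beside 7.17% of all genes in either direction. Trem1 was at 63.1 ± 1.61, 65.2 ± 17.2 and 60.96 ± 6.02 CPM. Myd88, the adaptor of Tlr4, was at 127.3 ± 5.82, 129.8 ± 8.46 and 108.7 ± 5.21 CPM. It fell by 0.26 ± 0.07 from 24 h to 72 h (adjusted p = 0.0337), a call that 6 of the 9 fits lost. Myd88 was the 1 gene of this list called between the times, beside 18.2% of all genes in either direction. Ly96, Cd14, Tyrobp, Syk, Il6ra and Il6st were not called, with log2 values from -0.44 to 0.22.

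Clock genes, some of whose mRNAs Cirbp binds, had 0 of 18 called at 24 h, 1 lower at 72 h and 2 lower from 24 h to 72 h. Over all genes 3.77% were lower at 72 h and 12.8% lower between the times. The clock median at 24 h was 0.3, beside 0.014 over all genes, with 11 of 18 log2 values positive. At 24 h 8 had an unadjusted p under 0.05, beside 14.7% of all genes. DESeq2 called 4 higher at 24 h, beside 5.03% of all genes called by it in either direction. The edgeR calls were as follows. Cry1 fell by 0.68 ± 0.16 from air to 72 h (adjusted p = 0.0497), and Cry2 and Tef by 1.07 ± 0.26 and 0.93 ± 0.27 from 24 h to 72 h (adjusted p = 0.0255 and 0.0495). None of the 3 calls held without the 2 libraries, where Nr1d2 was called higher at 24 h than in air (adjusted p = 0.0498) and lower at 72 h than at 24 h (0.0355), and Arntl and Clock higher at 72 h than at 24 h (0.0187 and 0.0375). The hour of the day at which mice were killed is not given in the labels. Of 8 tested genes of heat production and thyroid response, 0 were called at any comparison over all 9 libraries (1, 3 and 0 at an unadjusted p under 0.05, beside 14.7%, 25.3% and 33.3% of all genes). Ucp2, a mitochondrial carrier abundant in macrophages, was at 2236.0 ± 110.0, 2257.0 ± 102.0 and 2048.0 ± 74.4 CPM. Ucp3 was at 97.96 ± 7.87, 69.73 ± 15.8 and 90.13 ± 12.4 CPM. In the 7-library fit Ucp3 was called higher at 72 h than at 24 h, by 0.33 (adjusted p = 0.0399), and Adrb1, a beta-adrenergic receptor, lower at 72 h than in air, by a log2 value of -0.47 (adjusted p = 0.013), and than at 24 h, by -0.36 (adjusted p = 0.027).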

How the data were processed

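RNA of lung macrophages from 9 libraries, in 3 groups of 3 (air, 24 h and 72 h after ozone), was analysed from a table of estimated counts per gene. The submitters' processing notes name Trimmomatic 0.39, FastQC, Salmon, DESeq2 and the build GRCm38.p6, without the role of each. The estimated counts the authors deposited were fractional in part (80.5% whole) and were rounded here. The labels name neither the annotation release nor the import options. Gene IDs were matched to GENCODE M21 (54107 of 54281 rows), which also gave the lengths.

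Log2 fold changes with SE, and calls, came from edgeR 4.0.16 (TMM, filterByExpr, robust quasi-likelihood fit of all 9 libraries together, R 4.3.3), with Benjamini-Hochberg adjustment over 15713 genes at 0.05. DESeq2 1.42.0 and limma voom 3.58.1 were alternatives, with other scalings, filters, and fits without 1 library, without the 2 libraries whose summed B cell markers exceeded 100 CPM, or without these and air replicate 2; these last kept the same genes. The scripts were tested on simulated data, where at 24 h against air 19.4% of 1.5-fold and 47.8% of 2-fold changes were called. A gene that was not called may therefore still have changed. No 2 libraries of the same group agreed within counting noise. Counting errors cover counting alone. Genes were named by a rule: the pair, its overlapping and nearest genes, up to 4 called genes with the smallest p per list (the 2 most abundant where none was called), all tested regulators and receptors, and the 5 nearest by r for each. The pair and the lists were chosen with earlier results of these data known. Promoter sequence is from RefSeq.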

Additional observations from a re-analysis of the deposited data

How the results depend on the processing

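The 2 genes kept the direction of their difference from air under 11 alternatives and under each of 9 fits without 1 library. These fits share most of their libraries. For Cirbp at 72 h the direction was within its error: -0.075 ± 0.31 (SE) without 72 h replicate 2 and -0.083 ± 0.31 without 72 h replicate 3. Without the 2 libraries with lymphocyte markers and air replicate 2, Cirbp moved to -0.72 at 24 h and -0.61 at 72 h and Rbm3 to -0.49 at 24 h, and Rbm3 at 72 h against 24 h moved to 0.24 without the 2 libraries. Leaving out 1 library gave Cirbp -0.70 to -0.28, -0.58 to -0.075 and -0.18 to 0.48 for 24 h, 72 h and 72 h against 24 h, the last turning negative without 72 h replicate 1, and Rbm3 -0.45 to -0.26, -0.29 to -0.17 and 0.02 to 0.22. Genes called numbered 0 to 2, 31 to 1617 and 658 to 2776 over these fits, and list genes 0, 0 to 21 and 16 to 48. At 24 h, 1 gene was called, against 0 with no filter, with the replicate block or with the 6 libraries compared alone, 618 with DESeq2 and 24 without the 2 libraries. List genes were 14 with DESeq2 and 1 without the 2 libraries. At 72 h, 860 became 506 with DESeq2 size factors, 299 with upper quartile, 270 with no filter, 459 at 1 CPM in 3 libraries, 35 with the replicate block, 1936 with DESeq2, 430 without the 2 libraries and air replicate 2 and 1362 with 6 libraries. The 12 list genes became 7, 1, 4, 7, 1, 29 and 4 over the same settings apart from the last. For 72 h against 24 h, 2855 became 1696 with no filter, 1474 with the block, 1846 without the 2 libraries and air replicate 2 and 1885 with 6 libraries, and 45 list genes became 71 with DESeq2. The cause was not tested, other than that some settings use fewer libraries. Replicate numbers did not pair the libraries: same-number correlations of deviations ran from -0.613 to 0.475, and 2 of 9 libraries correlated best with their own number. With the replicate block Cirbp was -0.42, -0.26 and 0.16 and Rbm3 -0.33, -0.24 and 0.09. The log2 ratio of Rbm3 to Cirbp was 4.39, 4.50 and 4.44 in air, 24 h and 72 h, 3.54, 3.65 and 3.59 per kilobase, and 3.31, 3.42 and 3.36 per kilobase of the longest coding transcript, a choice added after the data were seen. Of the 5 genes nearest to Cirbp 1 stayed over all 9 libraries and 0 by Spearman, and of those of Rbm3 1 and 3. Counting errors were under 5% for both genes, and in the ozone groups of all 9 libraries the spread of each gene exceeded them. For Cirbp over the 7 libraries it did not. Its SD was 0.00159 CPM around 12.31 at 24 h and 0.145 around 13.33 at 72 h (n = 2 each), so that depth also limits the precision there.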
